A study of Mus musculus with 4 samples.

Results

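The calcium response of wild-type mouse keratinocytes is the difference between 2 of the 4 arrays of the series, the array of Pla2g2f+/+ cells treated with calcium and the array of Pla2g2f+/+ cells left without it. Keratinocytes, the epithelial cells of the epidermis, came from the whole skin of newborn C57BL/6 mice and were held for 48 h with or without 1 mM CaCl2. The +/+ arrays were chosen by their labels and not by any measured value. The other 2 arrays carry cells of the same treatments from Pla2g2f-/- mice, which lack a secreted phospholipase A2, and serve here only for values side by side. RNA was pooled from the cells of 6 mice for each genotype, and the labels do not say which exons were deleted. The Pla2g2f probe was read at 0.0982 and 0.122 in +/+ cells and at 0.0729 and 0.0866 in -/- cells, without and with calcium, as a share of the array's 75th percentile. Whether it lies inside the deleted part is not known, so it does not check the genotype labels. Each group is 1 array, so replicate spread is unknown for every difference, none carries a p-value, and precision is limited by how few arrays there are.

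In the skin, keratinocytes divide on the basement membrane and then move outward, where extracellular calcium is higher. In culture, raised calcium lets cadherins pair between neighbouring cells, builds desmosomes and tight junctions, and starts the programme that ends in the cornified envelope, a shell of cross-linked protein coated with lipid. Transcription factors of the AP-1, GRHL and KLF families are known to act on promoters of envelope genes.

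Signal is given relative to the 75th percentile of each array, which is 1, so that a value of 2 means a spot as bright as 2 such percentiles. Levels of different probes are not comparable, and only the change of a probe between arrays is read. Genes entered the comparison when their brightest probe stood well above background with calcium, without it or in both states, and a 2-fold difference makes a call. Where the probe was dim on the other array, the fold is a lower bound, written "at least". The scanner software's own error for a difference had a median of 0.20 log2, and probes printed as 10 spots had a median SD of the difference of 0.0386 log2 among those spots. Both are technical and say nothing about the spread between cultures. On the +/+ arrays 67.0% of probes were well above background both without and with calcium, and no spot was saturated. The keratinocyte marker list was well above background for 13 of 13 genes on each array, among them Krt5, Krt14 and Trp63.

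Of 21126 genes compared, 522 were at least 2-fold higher with calcium (2.47%) and 213 at least 2-fold lower (1.01%). Of these, 118 higher and 86 lower genes were counted from a bound. The 2.47% and 1.01% are the shares to set beside each count of called list members given below. The response was narrow, since 63.2% of the genes compared lay within 1.2-fold, and it was deeper on the high side. A 4-fold difference was reached by 160 genes upward and 17 downward, and a 10-fold difference by 64 upward and 0 downward. The median of all genes was -0.07 log2. With normexp background correction the calls were 328 higher and 62 lower, so that 84.1% of calls were on the high side against 71.0%, and with arrays scaled to basal and keratinocyte genes they were 654 and 135 (82.9%). With no filter on dim probes they were 887 and 1097 (44.7% on the high side), and at a 1.5-fold threshold 1062 and 1246, so that the lean toward higher genes depends on the filter and on the threshold. The scaling to basal and keratinocyte genes used the basal keratin, hemidesmosome and integrin, and keratinocyte marker lists. It moved all genes measured on both arrays upward by the same amount. The hemidesmosome and integrin list was itself lower with calcium (median -0.42), so this setting is no independent check. Several probes were measured for 95 of the higher genes and 30 of the lower ones, and they disagreed in sign for 12 and 3.

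**Figure D1:**
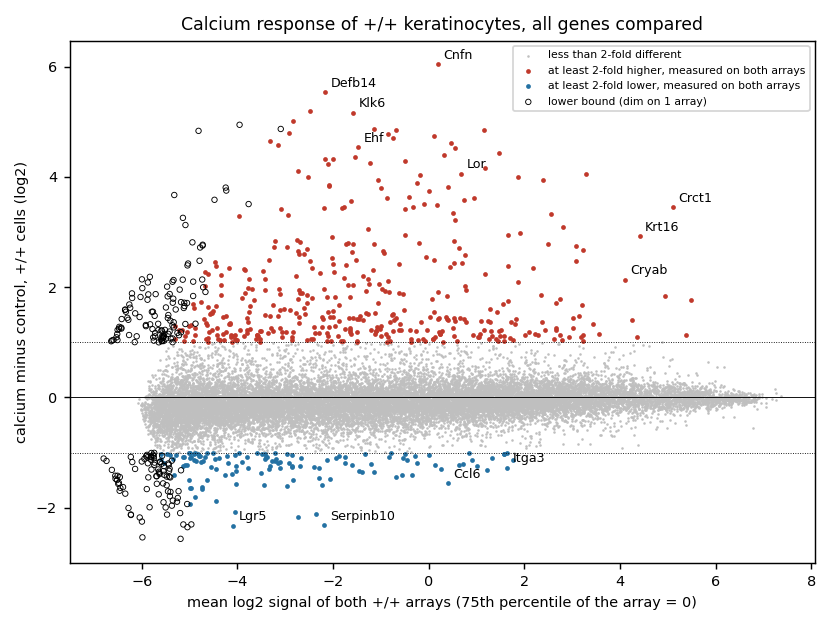
Difference between the +/+ arrays (calcium minus control, log2) against the mean log2 signal of both, for the 21126 genes compared. Filled points are measured on both arrays and open circles are lower bounds; the 522 higher genes reach further from 0 than the 213 lower genes.

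Promoters of the genes at the top of the response are shown because AP-1 sites are a textbook feature of envelope gene promoters. RefSeq gives promoter windows for 13073 of the genes compared (61.9%), each from 250 bases before a gene's start to 50 after it, some genes having several starts. The AP-1 letters TGANTCA, which read the same on either strand, were in 6.02% of 16388 windows of all genes compared and in 5.22% of 10351 windows of genes less than 1.2-fold different. They were in 17.8% of 393 windows of genes at least 2-fold higher, 22 of 122 windows of genes at least 4-fold higher and 22.4% of 58 windows of genes at least 8-fold higher. In genes at least 2-fold lower the letters were in 18 of 137 windows (13.1%). The GRHL letters AACCNGTT, searched on both strands, were in 1.96% of all windows, in 13 of 393 windows of genes at least 2-fold higher (3.31%), in 2 of 122 windows of genes at least 4-fold higher (1.64%) and in 2 of 137 windows of genes at least 2-fold lower (1.46%). The AP-1 share was above that of all windows in both called groups. The GRHL share was above it in genes at least 2-fold higher and below it in genes at least 4-fold higher and in lower genes, from small counts. Windows of a gene overlap and gene families share promoters, so these are descriptions, and a match is not a bound site.

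The 250 bases before the start of 6 genes at least 8-fold higher follow, with AP-1 or GRHL letters in capitals (GRCm38.p6, from RefSeq). The 6 were picked because they hold the AP-1 letters, which most windows of such genes do not. Scel (chr14:103513091-103513340, plus strand) encodes sciellin, a precursor of the envelope. Krtdap (chr7:30787655-30787904, plus strand) encodes a secreted protein of differentiating keratinocytes, and Lor (chr3:92083143-92083392, minus strand) loricrin, the main envelope protein. Sprr1a (chr3:92485882-92486131, minus strand) encodes a small proline-rich envelope protein. Cysrt1 (chr2:25239898-25240147, minus strand) encodes a cysteine-rich protein and Rnf222 (chr11:68888303-68888552, plus strand) a RING finger protein.
Scel: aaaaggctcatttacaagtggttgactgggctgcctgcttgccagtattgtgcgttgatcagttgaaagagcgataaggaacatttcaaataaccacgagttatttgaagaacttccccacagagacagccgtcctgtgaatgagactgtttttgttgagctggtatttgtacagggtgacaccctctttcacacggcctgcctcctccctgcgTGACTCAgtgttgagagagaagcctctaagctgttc
Krtdap: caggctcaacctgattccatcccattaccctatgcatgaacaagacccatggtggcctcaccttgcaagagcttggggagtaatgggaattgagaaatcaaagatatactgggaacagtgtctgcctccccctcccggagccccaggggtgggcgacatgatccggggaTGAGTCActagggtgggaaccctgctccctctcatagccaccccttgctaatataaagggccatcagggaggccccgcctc
Lor: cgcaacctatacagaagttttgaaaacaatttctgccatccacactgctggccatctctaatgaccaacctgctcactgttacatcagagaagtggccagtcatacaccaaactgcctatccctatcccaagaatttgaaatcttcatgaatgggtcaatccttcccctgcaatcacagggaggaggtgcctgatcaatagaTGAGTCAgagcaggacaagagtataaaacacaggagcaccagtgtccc
Sprr1a: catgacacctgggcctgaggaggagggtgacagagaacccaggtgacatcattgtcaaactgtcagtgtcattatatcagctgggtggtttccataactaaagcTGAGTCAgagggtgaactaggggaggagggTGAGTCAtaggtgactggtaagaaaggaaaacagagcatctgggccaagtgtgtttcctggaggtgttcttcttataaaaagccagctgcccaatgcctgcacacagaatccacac
Cysrt1: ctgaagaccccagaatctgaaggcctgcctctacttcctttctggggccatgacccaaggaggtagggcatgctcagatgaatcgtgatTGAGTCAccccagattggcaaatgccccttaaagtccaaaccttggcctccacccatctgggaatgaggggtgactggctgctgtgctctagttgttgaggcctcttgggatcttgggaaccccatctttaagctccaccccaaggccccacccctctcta
Rnf222: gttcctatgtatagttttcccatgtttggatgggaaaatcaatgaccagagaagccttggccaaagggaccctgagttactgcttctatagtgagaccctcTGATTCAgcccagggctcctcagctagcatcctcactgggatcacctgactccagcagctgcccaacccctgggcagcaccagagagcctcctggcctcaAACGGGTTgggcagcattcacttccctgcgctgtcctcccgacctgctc
The AP-1 letters began 36 bases before the start in Scel, 48 in Lor, 81 in Krtdap, 161 in Cysrt1 and 149 in Rnf222, and Sprr1a held them at 146 and 116. Rnf222 also held the GRHL letters, beginning 49 bases before its start.

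The basal layer's own genes were near their untreated level or lower with calcium. The keratin pair of basal cells, Krt5 and Krt14, differed by 0.08 and 0.01 log2, with relative signals of 149 and 157 for Krt5 and of 95.4 and 96.4 for Krt14 without and with calcium. Krt15, a basal keratin linked to stem-like cells, went from 0.049 to 0.0246 (-0.99 log2, scanner error 0.35). Of 17 genes of hemidesmosomes and integrins, which hold basal cells to the basement membrane, 1 was at least 2-fold lower, 0 were at least 2-fold higher, and 13 lay below 0 around a median of -0.42 log2. The integrin Itga3 dropped from 4.84 to 2.01 on the +/+ arrays (-1.27), and the hemidesmosome collagen Col17a1 from 13.8 to 7.68 (-0.85). The laminin genes Lama3 and Lamb3 differed by -0.57 and -0.59. The transcription factor Trp63, which keeps the basal state, differed by -0.28, with its 4 probes between -0.28 and 0.26.

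Keratins of the layers above did not move as a block. Krt1 and Krt10, the pair that classically replaces Krt5 and Krt14 above the basal layer, were not called: Krt10 went from 0.25 to 0.345 (0.46 log2), and Krt1 was dim without calcium and barely above background with it (0.0146 and 0.0253). Krt23 instead went from 0.0982 to 1.88, a 19.1-fold difference. Krt78 was 5.66-fold and Krt80 3.81-fold higher, and Krt90, outside the lists, 9.84-fold. Krt16, a keratin of wounded and fast-growing epidermis, went from 7.74 to 58.6 (7.57-fold), while its partners Krt6a and Krt6b differed by 0.55 and 0.58 log2, the other Krt6b probe by 4.55, and Krt17 by 0.07. Among keratins of simple epithelia Krt7, Krt8 and Krt19 were 1.11, 1.05 and 1.06 log2 higher, all close to the threshold, and with normexp correction Krt19 was at 0.60.

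Cell junction genes lay mostly higher. Of 17 desmosome genes, which rivet neighbouring cells together, 8 were at least 2-fold higher and 0 lower (median 0.86). Dsg1b was at least 11.4-fold higher, from a dim 0.0218 to 0.248, and Dsc1 at least 3.29-fold, although with normexp correction Dsc1 was at 0.59 log2. The cadherins Dsc2 (0.561 and 1.44) and Dsc3 (0.787 and 1.74) were 2.57-fold and 2.21-fold higher. Corneodesmosin (Cdsn), which seals desmosomes of the outer layers, went from 1.86 to 18.8 (10.1-fold), and the plaque proteins periplakin (Ppl) and envoplakin (Evpl), which seed the envelope, were 2.77-fold and 2.38-fold higher. Dsg2, the desmoglein of basal and simple epithelia, differed by -0.62. Outer-layer desmosome genes were therefore among those called, while plakophilins (Pkp1, Pkp2 and Pkp3: 0.44, 0.34 and 0.20) and desmoplakin (Dsp, 0.39) were not called.

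Of 22 tight junction genes, which form the paracellular seal, 10 were at least 2-fold higher and 0 lower (median 0.97). Claudin 3 (Cldn3) went from 0.619 to 3.34 (5.39-fold), Cldn4 from 2.15 to 5.8 (2.70-fold) and Cldn1, whose loss opens the skin barrier, from 1.83 to 4.23 (2.31-fold). Occludin (Ocln) went from 0.205 to 0.855 (4.17-fold), and the tricellular junction genes Ildr1 and Marveld2 were 1.97 and 1.28 log2 higher. Among 11 adherens junction genes only Nectin4 was called (3.78-fold, from 0.289 to 1.09), and E-cadherin (Cdh1) differed by 0.19 and P-cadherin (Cdh3) by -0.60. Of 8 connexin and pannexin genes, which form gap junctions and channels, Gjb2 was 5.65-fold and Gjb6 at least 2.43-fold higher (normexp, 0.54 log2), and Gja1 differed by -0.59.

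**Figure D2:**
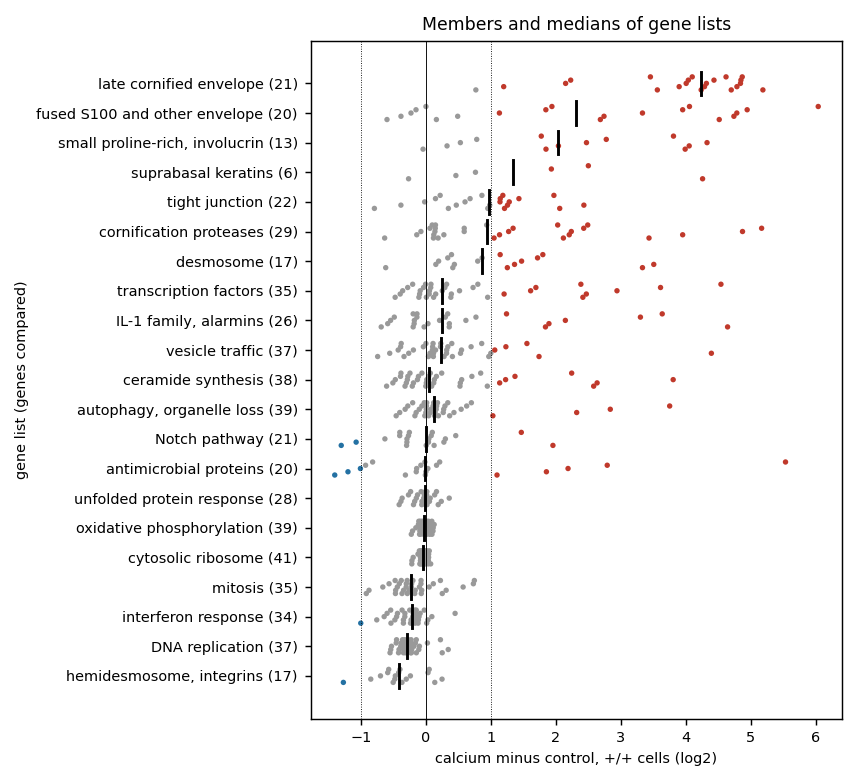
Difference of each compared member (points) of 21 gene lists and the list's median (black bar), calcium minus control in +/+ cells, log2. Red points are at least 2-fold higher and blue points at least 2-fold lower; the 3 envelope lists have medians from 2.04 to 4.24, and ribosome and respiration genes sit within a narrow band around 0.

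Transcription factors of epidermal differentiation were called for 9 of 35 genes, all higher (median 0.25). The ETS factor Ehf led them, from 0.0744 to 1.73 (23.3-fold), with its other probe at 3.44 log2. The homeodomain protein Hopx went from 0.552 to 6.74 (12.2-fold). The grainyhead factors Grhl3 (1.13 and 8.68) and Grhl1 (1.38 and 7.21), which act in barrier formation, were 7.68-fold and 5.22-fold higher, while Grhl2 differed by 0.15. Ovol1 and Zfp750, repressors of the basal programme, were 5.54-fold and 5.33-fold higher, Prdm1 3.23-fold, Elf3 3.05-fold and Casz1 2.30-fold. Klf4, a factor needed for the barrier, went from 9.8 to 17.1 and was not called (0.80). Of 22 AP-1 and immediate early genes only Egr2 was called (4.81-fold), and the AP-1 subunits Junb, Fos, Fosl1 and Fosl2 lay between 0.58 and 0.82. The factors that moved past 2-fold were thus a subset, and most of the list stayed within it.

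Among signalling lists, shares called higher were 9.52% for Notch, 4.65% for Wnt, 5% for TGF-beta and BMP, and 12% for EGF receptor genes. The share was 0% for the IGF and FGF lists. Of all genes compared 2.47% were called higher and 1.01% lower. In the Notch pathway, which drives cells out of the basal layer, the receptor Notch3 (0.768 and 2.12, 2.77-fold) and the feedback target Nrarp (0.0473 and 0.183, 3.88-fold) were higher, and the ligands Jag2 (1.89 and 0.763, -1.30 log2) and Dll1 (-1.07; its other probe -0.22; normexp, -0.97) were lower. The other 17 of 21 Notch genes were not called, the target Hes1 at 0.13 among them. The smooth muscle and pericyte list, which holds Notch3, had 2 of 6 genes called, the other being Cnn1 (1.47). In the Wnt pathway 2 of 43 genes were called higher and 1 lower: Wnt7b (2.30-fold), the receptor Lgr6 (at least 2.47-fold; normexp, 0.45 log2) and Lgr5, a Wnt co-receptor of stem cells (0.131 and 0.0261, -2.33). In the TGF-beta and BMP pathway the activin subunit Inhba went from 11.7 to 31 (2.65-fold), Id2 was 2.22-fold higher and the matrix protein Tgfbi was lower (-1.13). Of 25 EGF receptor ligands and feedback genes 3 were called, all higher: the phosphatases Dusp4 (0.131 and 0.692, 5.27-fold) and Dusp5 (2.91-fold) and the ligand Ereg (3.53-fold). Of 16 genes of the IGF pathway only Igf1 was called, lower (-1.35), and the mean of its 5 probes was -0.87. None of 18 FGF pathway genes was called (median -0.24).

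The cornified envelope held the largest differences. Of 21 genes of the late cornified envelope family and its neighbours, small cysteine-rich proteins of the outermost layers, 20 were at least 2-fold higher (median 4.24 log2). Lce1f went from 0.0295 to 1.08 (36.4-fold) and Lce1d from 0.117 to 3.35 (28.7-fold). The family was not uniform: Lce1k (2.15), Lce1l (2.23) and Lce1a2 (2.29-fold, its other probe 3.22 log2) lay well under the median, and Lelp1 (0.77) was not called. Crct1 went from 10.5 to 115 (3.45 log2). Members of the family are near identical, and a probe may read several of them.

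Of 13 small proline-rich and involucrin genes 9 were higher (median 2.04). Sprr1a went from 2.39 to 39.6 (16.6-fold) and Sprr2e from 0.0494 to 0.991 (20.1-fold), whereas Sprr2f (0.53), Sprr2a2 (-0.04) and Sprr4 (0.78) were not called. Involucrin (Ivl), a scaffold laid down early in the envelope, went only from 0.0847 to 0.106, and its probes gave 0.31 and 0.32. Of 20 other envelope genes 13 were called, all higher. Cornifelin (Cnfn) went from 0.141 to 9.29, loricrin (Lor) from 0.393 to 6.54, and Kprp from 0.106 to 2.92. The repetin gene (Rptn) was at least 1.40-fold higher and cornulin (Crnn) had no fold, and the stefins and cystatin A genes (Csta2, Csta3, Stfa1, Stfa2 and Stfa3) lay between -0.60 and 0.16. Of 9 cross-linking and deimination enzymes Tgm1 went from 0.076 to 1.56 (20.5-fold) and Tgm5 was at least 2.22-fold higher (normexp, 0.42 log2), while Tgm3 differed by -0.16. Padi3 was lower (-1.06; normexp, -0.75).

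**Figure D3:**
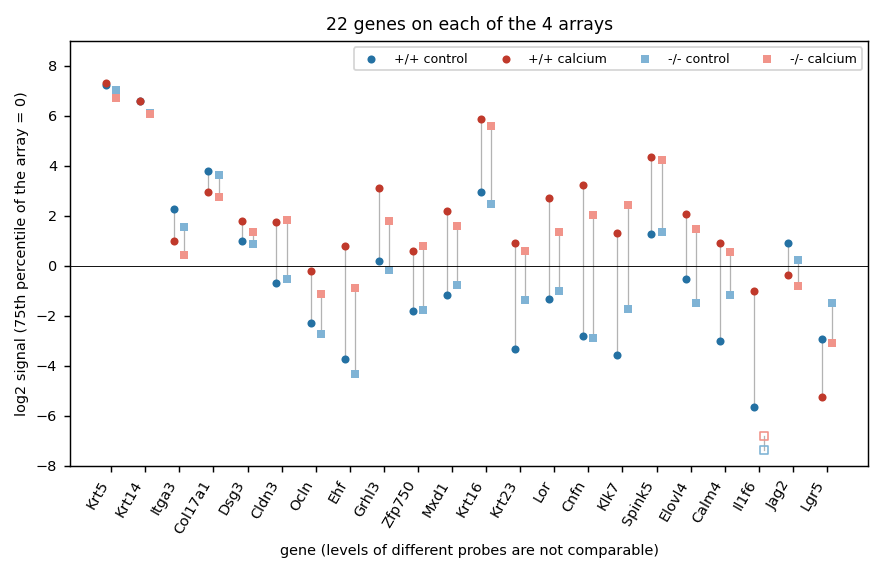
Log2 signal of 22 genes on the 4 arrays, relative to the array's 75th percentile; circles are +/+ and squares -/- cells, blue without and red with calcium (paler in -/- cells), and open symbols are not well above background. In +/+ cells Krt5 and Krt14 are level, Itga3, Col17a1, Jag2 and Lgr5 are lower with calcium, and the other genes are higher. Il1f6 is dim on both -/- arrays.

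Proteases that process and shed the outer layers were called for 14 of 29 genes, all higher (median 0.93; 0.56 with normexp, 0.59 over the 26 measured on both arrays and 0.28 with no filter). The kallikreins Klk6 (0.0558 and 2.01), Klk7 (0.084 and 2.46) and Klk5 (0.0665 and 0.718), which cut corneodesmosomes, were 35.9-fold, 29.3-fold and 10.8-fold higher. The filaggrin-processing protease Asprv1 was 3.95 log2 higher, the channel-activating protease Prss8 5.62-fold and caspase 14 (Casp14) 4.61-fold. Matriptase (St14), the furin gene and lysosomal cathepsins Ctsd, Ctsl and Ctsc differed by 0.59, 0.14, 0.14, 0.12 and 0.06. Of 19 protease inhibitors 5 were higher and 0 lower, with 9 below 0 and a median of 0.08. Spink5, the inhibitor of kallikreins, went from 2.4 to 20.3 (8.47-fold), cystatin M (Cst6) from 0.208 to 5.55 (26.7-fold), Serpinb7 was at least 12.0-fold higher, and Spint1 and Slpi were 1.11 and 1.09 log2 higher. The 15 clade B serpins had a median of -0.18, with 3 higher and 1 lower. Serpinb10, of the same clade as Serpinb7, went the other way, from 0.492 to 0.0989 (-2.32), and the remaining clade B serpins apart from Serpinb2 (1.13) and Serpinb11 (at least 3.95-fold; normexp, 0.78 log2) were within 2-fold.

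Nuclear and organelle breakdown, the last step before a keratinocyte becomes a dead envelope, was represented by nucleases. Trex2, a keratinocyte exonuclease, went from 0.273 to 3.68 (13.5-fold), Dnase1l3 from 0.0402 to 0.287 (7.15-fold) and Dnase1l2, a nuclease of cornified cells, from 0.201 to 1 (4.99-fold). Of the 39 genes of that list only Hmox1 (1.03) was called besides, and the autophagy core genes Atg5, Atg7 and Becn1 lay between -0.10 and -0.02. The lysosome list had 0 of 32 genes called higher and 1 lower, Ctss (-1.02), a cathepsin of antigen-presenting cells. Of 24 subunits of the vacuolar proton pump, which acidifies organelles, Atp6v1c2 was 7.20-fold and Atp6v0a4 at least 4.24-fold higher (normexp, 0.95 log2), Atp6v0d2 was lower (-1.02), and the broadly used subunits Atp6v1a and Atp6v0c differed by 0.12 and 0.29.

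Lipid genes were called enzyme by enzyme. Of 38 ceramide genes, whose products fill the space between cornified cells, 7 were at least 2-fold higher and 0 lower (median 0.05). They were Smpd3 (at least 3.81 log2, from a dim 0.0133 to 0.208), the hydroxylase Degs2 (0.132 and 0.817, 6.21-fold), the elongase of very long chains Elovl4 (0.692 and 4.14, 5.99-fold), the ceramidase Acer1 (4.73-fold), the lamellar body transporter Abca12 (1.52 and 3.93, 2.59-fold), Elovl7 and the ceramide synthase Cers3 (6.35 and 13.9, 2.20-fold). Broadly used genes of the same route, Sptlc1 and Degs1, were each at 0.01. Aloxe3, a lipoxygenase that oxidises barrier ceramides, was 3.76-fold higher, and its partner Alox12b was at 0.08 by its brightest probe and 1.01 by the other. The cholesterol sulfotransferase Sult2b1 went from 1.33 to 10.6 (7.92-fold), and the remaining 33 genes of cholesterol synthesis were within 2-fold (list median 0.23). Among fat synthesis and storage genes Cidea, a lipid droplet protein, went from 0.156 to 1.91 (12.3-fold), the lipase Lipm was at least 6.75-fold higher, and Fasn, Scd1 and Pparg were at -0.21, -0.38 and -0.72. Retinoid genes included Aldh1a3, which makes retinoic acid (at least 12.7-fold), and the retinol dehydrogenase relatives Sdr16c6 (0.0879 and 0.963, 3.45 log2) and Sdr16c5 (2.39 log2, a bound), while Adh1 was lower (-1.09).

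Phospholipase and prostaglandin genes had list medians near 0 (-0.05 and -0.09). Of 22 prostaglandin genes, however, 2 were called higher and 2 lower, beside 2.47% and 1.01% of all genes. Pla2g2f, the gene deleted in the other genotype, went from 0.0982 to 0.122 in +/+ cells (1.24-fold, scanner error 0.22 log2). Of 23 phospholipase A2 genes only Pla2g4d was called (2.28-fold, from 0.0275 to 0.0625; normexp, 0.54 log2). The prostaglandin-degrading enzyme Hpgd went from 0.139 to 0.624 (4.48-fold) and Ptgr1 was 1.14 log2 higher, while the prostaglandin synthase Ptgds (-1.22) and the receptor Ptgfr (-1.58) were lower and Ptgs2 was at 0.81.

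In the list of calcium sensing, calcium transport and vitamin D genes 4 of 36 members were called, all higher. The calmodulin-like protein Calm4, found in differentiated keratinocytes, went from 0.122 to 1.89 (15.5-fold), and the calcium channel Trpv6 from 0.0978 to 0.281 (2.87-fold). The channel Trpv3 (at least 2.13-fold; normexp, 0.37 log2) and the protein kinase Prkch (2.08-fold; normexp, 0.88 log2) were close to the threshold. The calcium-sensing receptor Casr was not well above background on either +/+ array, and the pumps Atp2a2 and Atp2c1 and the vitamin D receptor Vdr lay between -0.25 and 0.19. S100 proteins, a calcium-binding family of the same gene cluster as the envelope genes, were called for 1 of 15 (S100a7a, at least 3.66-fold; normexp, 0.70 log2), with S100a8 at -0.52 and S100a9 at 0.68. Of 48 transporters and channels 5 were higher and 3 lower. The amino acid transporter Slc6a14 was at least 28.5-fold higher and the sodium channel subunit Scnn1a went from 0.173 to 1.19 (6.90-fold). The water and glycerol channel Aqp3 (0.718 and 0.281, -1.35), the chloride channel Ano1 (3.67 and 1.48, -1.31) and the glutamate transporter Slc1a3 (-1.25) were lower.

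Defence and alarm genes were called in a few members, some by large amounts. Beta-defensin 14 (Defb14) went from 0.0328 to 1.52 (46.4-fold), Pglyrp3 was 2.79 log2 higher and Defb1 1.85. Of 20 antimicrobial genes 5 were higher and 3 lower, the latter being Wfdc21 (-1.40) and the lysozymes Lyz2 (-1.20) and Lyz1 (-1.01). In the IL-1 family and alarmin list 7 of 26 were higher and 0 lower. Il1f6, the epidermal IL-36 alpha, went from 0.02 to 0.501 (4.64 log2), Il1f5, the receptor antagonist of that group, from 0.0412 to 0.406 (9.86-fold), and Il1f9 and Il1f8 were at least 3.58-fold and 2.36-fold higher (normexp, 0.87 and 0.51 log2). Il18 was 4.43-fold, Tslp 3.71-fold and the pore-forming gasdermin Gsdma 12.4-fold higher. The classical members Il1a (-0.20), Il33 (0.77) and Il1rn (0.34) were not called. Of 21 chemokines 0 were called higher and 3 lower: Ccl3 (0.0667 and 0.0212, -1.65), Ccl6 (2.27 and 0.776, -1.55) and Ccl8 (1.45 and 0.7, -1.05). Of 38 cytokine and receptor genes 4 were called higher, the largest difference being 1.79 log2, and 2 lower. Il6 was 3.32-fold higher (normexp, 0.91 log2), and Il19 (-1.09) and Tnfsf11 (-1.03) were lower. Of 33 kinase and NF-kB genes 1 was called, the feedback inhibitor Tnfaip3 (1.44). That is 3.03% called higher, near the 2.47% of all genes. Interferon response genes had 1 of 34 called lower, Ifitm1 (0.818 and 0.408), beside 1.01% of all genes. Of the 34, 30 lay below 0 (median -0.22, beside -0.07 for all genes).

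Growth genes lay slightly lower with calcium, none past 2-fold. Of 37 DNA replication genes 33 were below 0 (median -0.29), and of 35 mitosis genes 27 (median -0.22), with Pcna at -0.18, Mcm2 at -0.32, Cdk1 at -0.47 and Mki67 at -0.17. The median of all genes was itself -0.07. With arrays scaled to basal and keratinocyte genes, which moved all measured genes upward alike, the DNA replication median was -0.13. In -/- cells the medians were -0.04 for DNA replication and 0.01 for mitosis. Cyclin D1 (Ccnd1) went from 18.7 to 12.2 (-0.61) and Myc from 7.27 to 5.56 (-0.39). Of 29 inhibitors and G1 regulators 1 was called, the MYC antagonist Mxd1, from 0.446 to 4.53 (10.2-fold). That is 3.45% called higher, beside 2.47% of all genes. The cyclin inhibitor Cdkn1a was at 0.53. Housekeeping groups had medians near 0. The 41 ribosomal protein genes lay between -0.22 and 0.07 (median -0.04), 33 of them below 0. The 39 respiratory chain genes lay between -0.23 and 0.13 (median -0.03), 24 of them below 0. The 28 genes of the unfolded protein response had 0 calls (median -0.02). A count below 0 therefore does not by itself set the growth genes apart. Among heat shock genes only Cryab, a small heat shock protein, was called (8.21 and 36, 4.39-fold).

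Traffic, shape and turnover genes added further large differences. Mal, a raft protein of apical transport, went from 0.272 to 5.72 (21.0-fold), its relative Mall was 8.30-fold higher, and the recycling endosome genes Rab25 (1.56 and 4.58), Myo5b and Rab11fip1 were 1.55, 1.23 and 1.06 log2 higher, the last at 0.47 with normexp correction. Among 43 genes of the actin cytoskeleton and its small GTPases 4 were called: the atypical GTPase Rhov (at least 8.74-fold), the non-muscle myosin Myh14 (0.604 and 3.96, 6.56-fold; its other probe 0.81 log2), Rhof and Cnn1. The ubiquitin ligase genes Rnf222 (0.0231 and 0.552) and Rnf39 (0.482 and 5.79) were 24.0-fold and 12.0-fold higher, and the deubiquitinase genes Usp2, Usp54 and Usp53 were 1.88, 1.57 and 1.47 log2 higher. Of 27 Ly6 and SLURP genes 6 were higher, led by Ly6g6c (10.9-fold) and Ly6d (3.72 and 23.7, 6.37-fold).

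Of the 522 higher genes 185 were list members, and the others stood outside the lists. Among all 21126 genes compared 1669 were list members, so the lists held a larger share of the higher genes than of all genes. The lists were chosen with earlier results of these data known. Among genes with a name other than a clone or model identifier, the largest differences measured on both arrays were in Cysrt1, a cysteine-rich protein gene (0.533 and 9.49, 17.8-fold), Bicdl2 (14.4-fold), the membrane protein gene Pdzk1ip1 (14.3-fold; its probes 2.34 and 3.84 log2), Xkrx (11.4-fold) and the sphingosine phosphate exporter Spns2 (0.338 and 3.78, 11.2-fold). They were followed by the semaphorin Sema7a (10.8-fold), Elmod1 and the endoribonuclease Endou (each 10.7-fold), Psapl1 (9.34-fold), Arg1, the urea cycle arginase (0.256 and 1.97, 7.67-fold), Prnd, Prr9 and the niacin receptor Hcar2 (7.02-fold). The largest bounds among such genes were Ubd (at least 13.5-fold), Mab21l4, Krtap3-2, Lratd1 and Esp6, the last just under 2-fold with normexp correction.

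On the low side 33 of 213 genes were list members, beside 1669 of the 21126 genes compared, and the differences were smaller. Again leaving out clone and model identifiers, the largest among genes measured on both arrays were Lgr5, Serpinb10, the prolactin family gene Prl6a1 (-2.17; its other probe -0.69), the glutathione transferase Gsta2 (0.0871 and 0.0238, -1.87) and Klra7, a natural killer receptor gene (-1.80) of a family of near-identical genes that a probe may not separate. Others were the extracellular matrix genes Frem1 (-1.65), Prg4 (-1.48), Itgbl1 (-1.46), Mfap4 (-1.41) and Sned1 (-1.33), the protease Adamts15 (-1.44), Arsb (-1.62), Lpar5 (-1.58), Agtr2 (-1.50), Psg19 (-1.50), Ctnnal1 and Scn11a (each -1.41). With normexp correction Klra7, Ccl3, Frem1, Arsb, Psg19 and Scn11a were at -0.98, -0.92, -0.89, -0.91, -0.84 and -0.69 and so under 2-fold. Lower genes already close to 2-fold were under it with 1 or more of the other settings, namely Adh1, Atp6v0d2, Ccl8, Cdh19, Ctss, Hbb-bt, Ifitm1, Il19, Lyz1, Pdgfra, Tgfbi and Tnfsf11, and so were the higher genes Hmox1 and Krt8. The largest bounds among such genes were Olfr312 (at least 5.10-fold lower), Eif5b and Slc13a4 (each at least 4.93-fold lower), Rtl9 and Npas1, the last pair at -0.96 and -0.89 with normexp correction. All 5 rest on 1 measured probe each, with relative signals of at most 0.0711.

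Several marker lists of other skin cells lay below 0 in the same comparison, and some lay above it. Mast cell markers had a median of -0.70 (6 of 7 compared genes below 0, Tpsb2 at 0.87, Ms4a2 and Mcpt1 dim on both arrays), adipocyte markers -0.58 (7 of 7 below 0, Lep dim on both) and erythroid markers -0.69 (5 of 5 below 0, Hbb-bt called at -1.06). Among 12 fibroblast markers 9 lay below 0 (median -0.19) and Pdgfra was called (3.68 and 1.72, -1.10), and their summed relative signal was 124 without and 108 with calcium. Among 7 Schwann and neural markers 5 lay below 0 (median -0.46), Cdh19 was called (-1.02), and the sum was 12.9 without and 11.8 with calcium. The mast cell sum went from 1.51 to 1.67, the adipocyte sum from 38.1 to 25.7, and the Langerhans and myeloid sum from 9.43 to 9.25 with a list median of -0.13, where Lyz2 was called lower, Epcam, which keratinocytes can also express, was called higher (1.05), Adgre1 was at -0.93, and Cd207 and H2-Aa were dim on both arrays. In a bulk sample fewer cells of a type and less RNA per cell cannot be told apart, and the part of such cells in the lower genes was not tested. Melanocyte markers had a median of 0.06 and endothelial markers -0.21, with 0 calls in each.

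By position, most higher genes were dispersed, and a minority lay in gene clusters (mm9 coordinates of the probes). Of 993 windows of 1 Mb with at least 8 genes compared, 735 held no higher gene, 258 held at least 1, and the 21 with 3 or more held 116 of the 515 higher genes with a position. The window from 92 to 93 Mb of chromosome 3 held 34 higher genes of 46, and the epidermal differentiation complex around it, read from S100a1 to S100a10 over 3.05 Mb, held 42 of 76 (55.3%, against 2.47% of all genes), which is 8.05% of all higher genes. The S100 genes at both ends of the complex lay between -0.76 and 0.68 except S100a7a, and most Lce and Sprr genes and Lor between them were called higher. Other windows with at least 4 higher genes were the kallikrein cluster on chromosome 7 (8 of 41: Klk5 to Klk11 and Myh14), a keratin cluster on chromosome 15 (7 of 38, with Krt7, Krt8, Krt78, Krt79, Krt80 and Krt90), the Ly6 and Slurp1 cluster on chromosome 15 (6 of 26), a region of chromosome 2 with Cysrt1, Clic3 and Nrarp (6 of 49), the desmosomal cadherins on chromosome 18 (5 of 10), the Krtdap, Sbsn and Dmkn cluster on chromosome 7 (5 of 60), the IL-1 family cluster on chromosome 2 (4 of 21), a window of chromosome 1 with Ifi202b (4 of 18) and the window next to the top one on chromosome 3, with Tchh and Tchhl1 (4 of 16). Chromosomes 3 and 18 had the highest shares of higher genes, 5.86% of 1007 and 5.65% of 513.

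**Figure D4:**
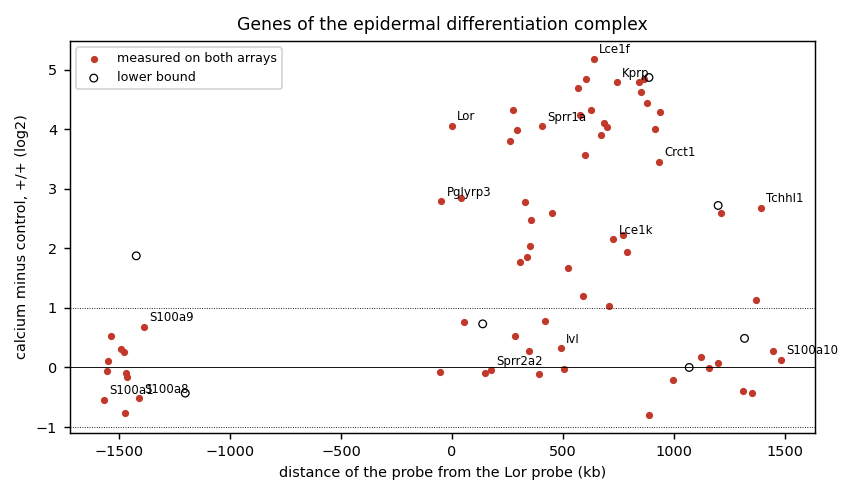
Difference with calcium in +/+ cells (log2) of the 76 compared genes of the epidermal differentiation complex against the distance of each probe from the Lor probe (kb). The Lce genes reach 5.19, the S100 genes at both ends lie between -0.76 and 0.68 except the bound of S100a7a, and none is at least 2-fold lower.

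In -/- cells the same treatment gave these genes the following values, from arrays not shared with the +/+ response. Among 20345 genes compared in both genotypes, 44.3% lay above 0 and 55.6% below 0 in -/- cells, the 2-fold threshold was passed upward by 2.56% and downward by 0.383%. Of the 470 higher genes that could be compared there, 446 lay on the same side of 0, 289 were also at least 2-fold higher and 1 was at least 2-fold lower. Of 166 lower genes compared, 93 lay on the same side, about the share of all genes below 0 (55.6%). Among the 166, 18 were also at least 2-fold lower and 10 were at least 2-fold higher. The genes were chosen for their difference in +/+ cells, which favours larger values there. Krt23 went from 0.39 to 1.48, Lce1d from 0.368 to 0.874, Sprr2e from 0.0258 to 0.0697 and Lor from 0.497 to 2.57 in -/- cells. Defb14 went from 0.0424 to 1.45, Klk7 from 0.303 to 5.42 and Spink5 from 2.51 to 18.5. Among the lower genes that were also at least 2-fold lower there, Itga3 went from 2.95 to 1.36, Jag2 from 1.18 to 0.564 and Lgr5 from 0.354 to 0.116. Other lower genes went the other way in -/- cells, Frem1 from 0.264 to 0.282, Prg4 from 2.36 to 2.55 and Ccl6 from 0.717 to 1.32. Il1f6 was not well above background on either -/- array (0.00602 and 0.00881), and Hcar2 was at 0.093 and 0.0828. The late cornified envelope list had a median of 1.35 log2 in -/- cells beside 4.24 in +/+ cells, the desmosome list 1.26 beside 0.86, the tight junction list 0.86 beside 0.97 and the hemidesmosome and integrin list -0.58 beside -0.42. The ribosomal protein list had a median of -0.20 in -/- cells beside -0.04 in +/+ cells, and the respiratory chain list -0.18 beside -0.03. Keratinocyte markers had -0.29 beside 0.01. The gaps of the tight junction list and of the hemidesmosome and integrin list were about as small as those of the ribosomal and respiratory lists. None of these differences between genotypes was tested.

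**Figure D5:**
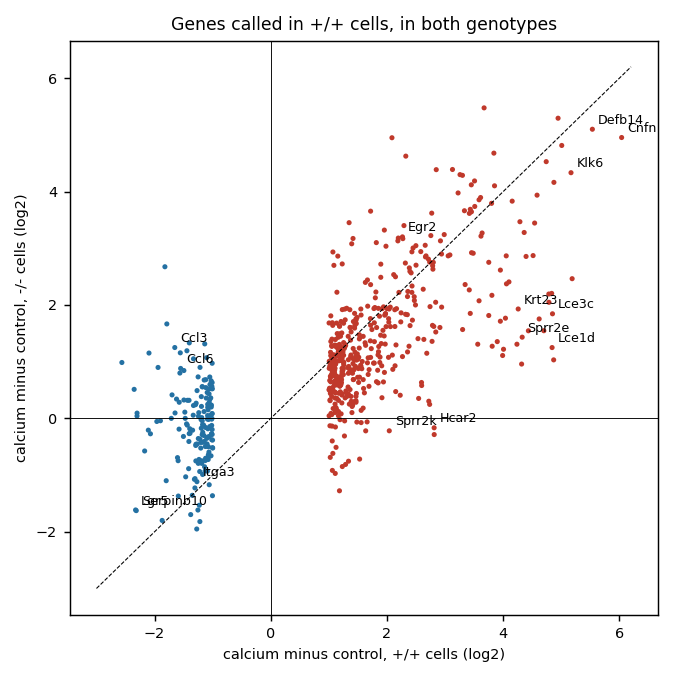
Difference with calcium (log2) in -/- cells against that in +/+ cells for genes called in +/+ cells and compared in both; red genes were higher and blue genes lower in +/+ cells, and the dashed line marks equal values. Most red genes lie above 0 on the vertical axis, the Lce and Sprr2 genes named on it lie under the line, and the blue genes scatter on both sides of 0.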

How the data were processed

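RNA pooled from 6 mice per genotype was measured on 4 1-colour Agilent arrays of 1 slide, 1 array per group. Per the file headers, spot intensity was extracted with Agilent Feature Extraction 11.5.1.1, and the deposited processed signal is an intensity with background subtracted and trends removed within the array. The authors' deposited value table holds a linear ratio, each processed signal over the 75th percentile of its array (largest relative deviation 2.31e-07), and was used as an alternative. Its column medians lay between 0.0612 and 0.0660, and its scale, centring and direction were settled by this match.

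From the deposited intensity values, log2 of the processed signal was taken and log2 of each array's own 75th percentile (43020 spots, controls left out) subtracted. Spots of a probe were averaged after outlier spots were left out, giving 39426 probes with a value on 4 arrays, of which 27596 were named by accession through RefSeq and 11830 as in the files. A gene was read from its brightest probe. A probe dim on 1 array was set there to the higher of its own signal and the lowest signal well above background, which gives a lower bound. With 1 array a group no test was possible, and 2-fold was the threshold. The number of arrays limits the precision.

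Named genes were the list members past 2-fold or largest in each direction and those that define a list by role, the largest differences outside the lists whose probes went the same way, the largest bounds, and genes of the named windows. The other genes named for context within a list were chosen after their values were seen. The 63 function lists and 15 marker lists, and the comparison itself, were chosen with earlier results of these data known. Alternatives changed the background correction (limma 3.58.1 normexp, offset 50, in R 4.3.3), the scaling, the probe rule, the filter and the threshold. The code (Python 3.11.15, numpy 2.4.6, pandas 2.3.3) was tested on simulated data. Some list members are not reported here.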

Additional observations from a re-analysis of the deposited data

Results flagged for a closer look

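Ccl3, a chemokine of macrophages and other immune cells, went in opposite directions with calcium in the 2 genotypes. It differed by -1.65 log2 in +/+ cells, from a relative signal of 0.0667 to 0.0212, and by 1.25 log2 in -/- cells, from 0.291 to 0.691. Each value is the difference of 1 pair of arrays, and the difference between the genotypes was not tested. With normexp correction the +/+ value was -0.92. The summed relative signal of the Langerhans and myeloid marker list without and with calcium was 9.43 and 9.25 in +/+ cells, 25.4 and 36.5 in -/- cells. Its part in the Ccl3 values was not tested.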

How the results depend on the processing

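No paired analysis was possible because each group is 1 array, and for the same reason no replicate could be left out. The count of higher genes was 328 with normexp, 887 with no filter, 239 at 3-fold and 1062 at 1.5-fold, against 522. The count of lower genes was 62 with normexp, 135 with scaling to basal and keratinocyte genes, 127 with genes well above background on both arrays, 1097 with no filter, 45 at 3-fold and 1246 at 1.5-fold, against 213. With normexp the medians of the tight junction, late cornified envelope and other envelope lists were 0.71, 3.68 and 2.01. The other envelope list was at 2.68 with genes well above background on both arrays and at 1.94 with no filter, and the small proline-rich list at 1.81 with no filter. The Merkel cell marker median, 0.25 over 4 genes, was -0.074 with no filter. Of 207 named genes past 2-fold, 165 stayed past it in every setting that gave them a value (140 of 159 higher and 25 of 48 lower), and none changed sign. Scaling to basal and keratinocyte genes moved the median of all genes by 0.16, since that setting moves all genes measured on both arrays alike. Genes near background have a bound in place of a value, and 1 array per group leaves the spread between cultures unknown. The cause of the other shifts was not tested.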
